A study of Mus musculus with 83 samples.

Results

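The colon epithelium keeps bacteria at a distance with secreted lectins and antimicrobial proteins, and 9 of their genes were followed here through the adult life of the mouse: Reg3b, Reg3g, Reg4, Itln1, Mptx1, Mptx2, Retnlb, Ang4 and Lypd8. They were picked from the 37764 genes of the deposited count table by function and symbol, with earlier results on the same counts in view, among them the Mptx1 difference between 15 and 24 months. RNA was sequenced from a piece of colon of 83 male C57BL/6J/Ukj mice, an inbred strain, kept for aging. The piece came from the proximal section. The groups were 3 months (16 mice), 9 months (16), 15 months (16), 24 months (17) and 28 months (18), and the labels give no treatment for any of them. The study set aside 1 mouse of 24 months as an outlier in its DNA methylation data. All 17 mice of that age were kept here. Each mouse gave 1 library in 1 of 3 preparation batches, and each age was spread over all 3 batches with 4 to 7 mice in each. Every mouse was sampled once, so that the age groups are different animals.

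Most of these proteins are made by goblet cells, by the deep crypt secretory cells at the colonic crypt base or by absorptive colonocytes, and reach the mucus or the cell surface. The Reg3 lectins are secreted C-type lectins that bind bacterial cell walls, and their genes are known targets of interleukin 22 acting through a STAT factor. Retnlb, Itln1 and Ang4 are known to be induced by the type 2 cytokines interleukin 4 and interleukin 13. Lypd8 is anchored to the colonocyte surface and binds bacterial flagella.

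Among the members are 2 pairs of paralogs, genes that arose by duplication. Reg3b and Reg3g lie 92.8 kb apart on chromosome 6, and Mptx1 and Mptx2 lie 1053 kb apart on chromosome 1. In GRCm38 the genes are annotated (GENCODE M21) at chr6:78370657-78373466 (Reg3b, plus strand), chr6:78466269-78468872 (Reg3g, minus), chr1:174330518-174332873 (Mptx1, plus) and chr1:173274382-173277777 (Mptx2, minus). The other 5 are at chr3:98222156-98236748 (Reg4, plus), chr1:171518122-171535294 (Itln1, minus), chr16:48816856-48818892 (Retnlb, plus), chr14:51763878-51773590 (Ang4, minus) and chr11:58379043-58390728 (Lypd8, plus). The 150 bases directly before the first exon of the first-numbered transcript (GENCODE M21) of each gene of a pair are printed below because the partners turned out to vary together between mice. Another annotated transcript of Reg3b starts upstream of its window, which therefore lies inside the annotated span of the gene, between 2 exons of different transcripts, while the other 3 windows end at the gene's boundary. They were taken from the RefSeq promoter table, build GRCm38.p6, which held 8 of the 9 members. Capitals mark bases that are identical in the pairwise alignment with the partner, lower case marks bases that differ or have no partner. The windows are chr6:78370711-78370860 on the plus strand for Reg3b, chr6:78468873-78469022 on the minus strand for Reg3g, chr1:174330368-174330517 on the plus strand for Mptx1 and chr1:173277778-173277927 on the minus strand for Mptx2.
Reg3b: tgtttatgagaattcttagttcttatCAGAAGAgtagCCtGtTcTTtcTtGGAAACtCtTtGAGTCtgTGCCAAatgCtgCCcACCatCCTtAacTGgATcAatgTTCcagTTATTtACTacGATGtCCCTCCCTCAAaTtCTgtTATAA
Reg3g: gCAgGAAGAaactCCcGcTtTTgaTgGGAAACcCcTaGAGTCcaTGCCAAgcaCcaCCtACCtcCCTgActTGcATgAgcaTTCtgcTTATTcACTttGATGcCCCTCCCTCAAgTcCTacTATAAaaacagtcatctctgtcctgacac
Mptx1: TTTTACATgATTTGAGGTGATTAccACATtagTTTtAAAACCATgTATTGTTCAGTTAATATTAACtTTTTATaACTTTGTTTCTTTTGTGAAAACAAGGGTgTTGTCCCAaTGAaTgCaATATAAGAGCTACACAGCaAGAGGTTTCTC
Mptx2: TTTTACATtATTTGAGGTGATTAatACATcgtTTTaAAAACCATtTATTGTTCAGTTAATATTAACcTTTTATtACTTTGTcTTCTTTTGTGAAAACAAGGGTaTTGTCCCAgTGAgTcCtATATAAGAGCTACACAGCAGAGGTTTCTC
The Mptx windows were identical at 134 of 151 alignment columns (88.7%), and the Reg3 windows at 82 of the 126 columns over which they could be aligned (65.1%). The STAT dimer motif TTCNNNGAA, which reads the same on both strands, was found in the Reg3b window and in none of the other 3 windows. It was present in 8.3% of all 32851 promoters of 300 bases (250 before and 50 after the start) in the same table, and of the 8 members with a promoter there, Ang4 and Reg3b had a match. The sequence TATAAA, searched on both strands, was present in 13.62% of all promoters and in those of Reg3b, Reg3g and Mptx1. In the printed Mptx1 window the match lay on the opposite strand only. The stretch ATATAAGAG near the end of the window is identical in Mptx1 and Mptx2.

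Libraries held between 23026370 and 75838290 counted read pairs (median 35495123), and no 2 mice of an age agreed within sampling noise. All 9 members were among the 18325 genes that passed the filter on low counts, so no member was lost. Levels within a gene are given as CPM, read pairs scaled to the normalised library size, and levels between genes as TPM, which also divides by gene length. The tissue showed the markers of colon epithelium, muscle and immune cells at every age. In 5 libraries, those of mice 10, 12 and 16 of the 3-month group and mice 4 and 6 of the 9-month group, the summed level of 5 smooth muscle markers lay between 1.08 and 1.73 (log2) below that of their age and batch. The lowest library had 674 CPM against a median of 2976 CPM at 3 months. A lower share of muscle in the piece cannot be told apart from less RNA per muscle cell, a limit that holds for every cell type in bulk tissue. Results that these libraries decide are given with and without them.

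Lypd8 ranked 2 of 37652 genes in the colon by mean TPM, at 16660 ± 1981 TPM (SD, n = 83). Mptx1 ranked 16 with 4889 ± 4480 TPM, Retnlb 36 with 2327 ± 1820 TPM and Ang4 38 with 2252 ± 1679 TPM. The means of Retnlb and Ang4 differed by far less than their spread between mice. Reg3b followed at rank 114 with 940.4 ± 2840 TPM, although its median of 403 TPM was below the median of Reg4, 418 TPM. Reg4 had a mean of 392 ± 216 TPM (rank 313), Reg3g of 150.1 ± 331 TPM (rank 1017) and Itln1 of 71.5 ± 84.8 TPM (rank 2279). From Mptx1 down to Itln1 the means of neighbours in this order differed by less than the larger of their SDs. These SDs are spreads between mice, and the difference between 2 genes within each mouse was not tested. Some medians lay far apart, with 1840 TPM for Ang4 against 403 TPM for Reg3b, and 418 TPM for Reg4 against 87.4 TPM for Reg3g. Mptx2 was near the limit of detection, at 1.29 ± 2.23 TPM and rank 15390. Its read pairs were 0.0263% of those of Mptx1 over all mice. In the annotated transcripts 3.31% of the 100-base windows of Mptx2 occur unchanged in Mptx1, so that read pairs from this stretch could be counted for either gene. The part of such read pairs in the Mptx2 values was not tested. No 100-base window of the other 7 members occurs in another gene.

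**Figure D1:**
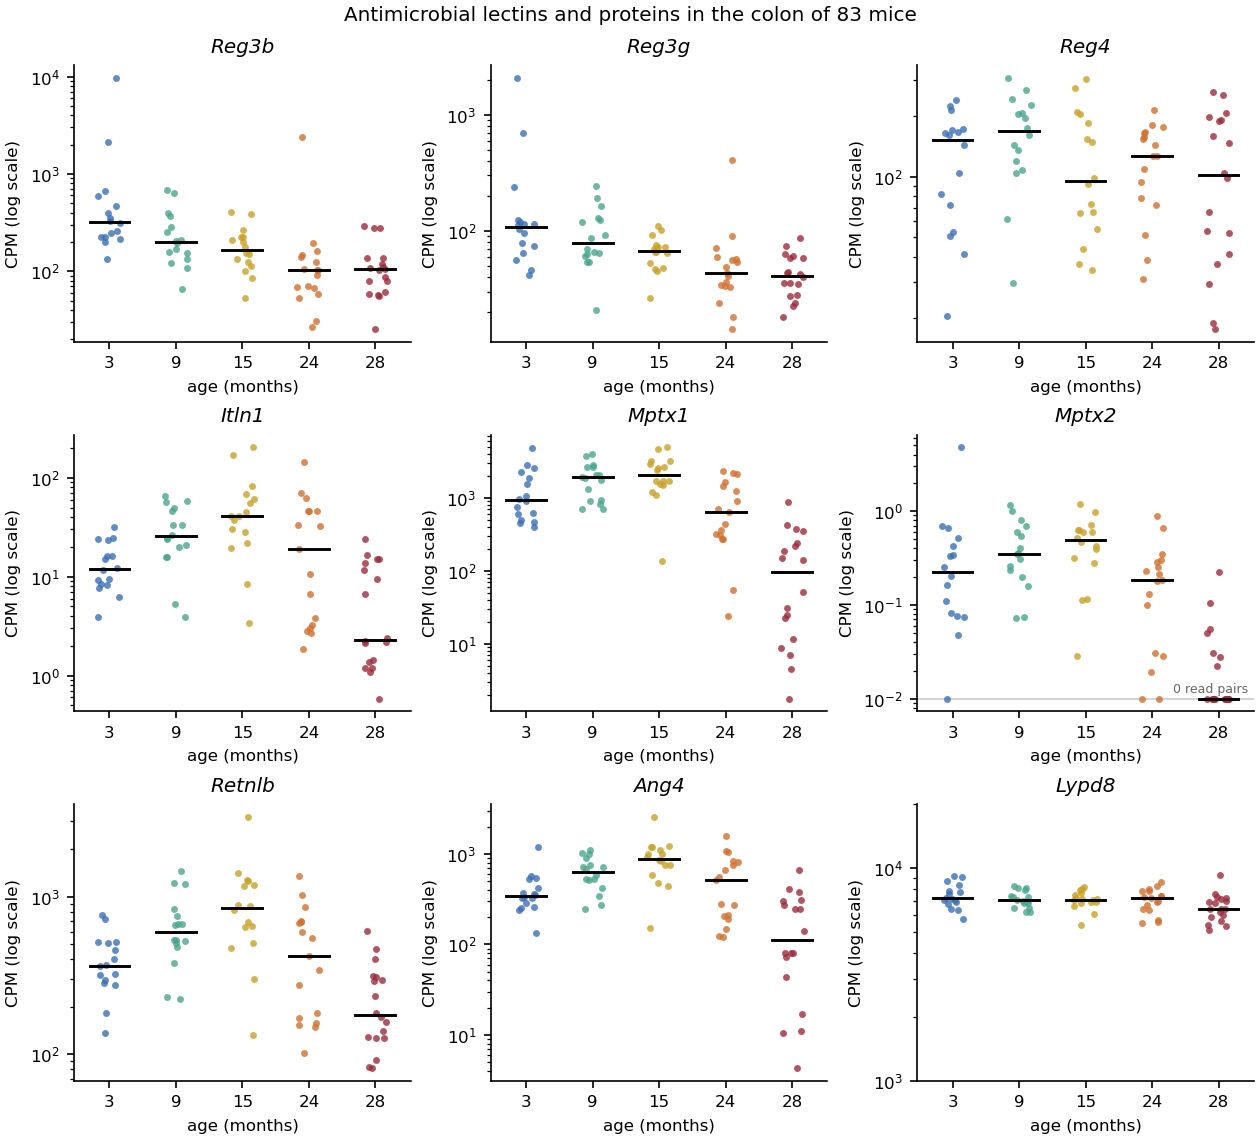
Level of each of the 9 genes in CPM (vertical axis, log scale) against age in months (horizontal axis), 1 point for each of the 83 mice and a black bar at the median of each age. Mptx2 values of 0 read pairs are drawn at the grey line. Mptx1 medians go from 932 CPM at 3 months to 2048 CPM at 15 months and 96.2 CPM at 28 months, while Lypd8 medians lie between 6440 and 7221 CPM at all ages.

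With age, 7 of the 9 members changed over the 5 groups, all but Reg4 and Lypd8, at an adjusted p below 0.1 (edgeR quasi-likelihood test with library batch as a term, Benjamini-Hochberg adjustment over all genes tested). This threshold was passed by 54.9% of all genes tested, the share against which the members' count is to be read. Between 24 and 28 months Itln1, Mptx1, Mptx2, Retnlb and Ang4 fell, 5 of 9 members, where 6.01% of all genes were called lower. Between 15 and 24 months Mptx1, Mptx2 and Retnlb were lower, 3 of 9 members beside 7.24% of all genes, and for Mptx1 this difference was known when the genes were picked. Between 3 and 9 months Reg3b and Reg3g were lower, 2 of 9 members beside 5.05% of all genes, and this call rested on 1 mouse, as described below. Between 9 and 15 months no member passed, where 0.431% of all genes were called in either direction. In this comparison no member reached an unadjusted p below 0.05 in edgeR, and DESeq2 also called 0 members. From 3 to 28 months 8 of 9 members fell, all but Reg4, beside 25.9% of all genes called lower. No member was called higher between any of these pairs of ages in the fit over all mice. With only the mice of 3 and 9 months fitted, Itln1 and Retnlb were higher at 9 months (edgeR, adjusted p = 0.0463 and 0.0758), and Retnlb also passed in the fit over all ages without mouse 5 of the 3-month group (edgeR, adjusted p = 0.0925). The median log2 fold change of the 9 members was 0.33 between 3 and 9 months, 0.22 between 9 and 15, -0.77 between 15 and 24, -1.07 between 24 and 28 and -1.11 between 3 and 28 months, while the median of all genes tested lay between -0.01 and 0.01 in all 5 comparisons. Consecutive comparisons share a group of mice, so that a high 15-month or 24-month group moves both of its neighbours.

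**Figure D2:**
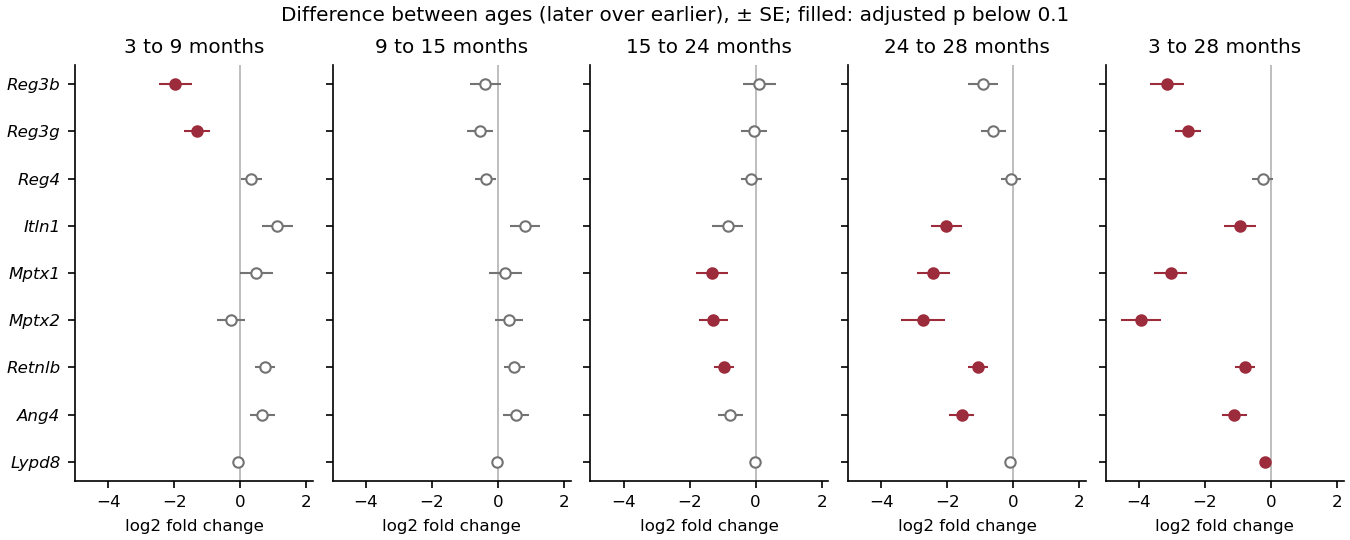
Log2 fold change of each gene (later over earlier age, horizontal axis) in 5 comparisons, with the standard error as bar. Filled red points passed an adjusted p of 0.1 in the edgeR quasi-likelihood test, open grey points did not. Called points lie left of 0 in every panel, with 2 in the first, 0 in the second, 3 in the third, 5 in the fourth and 8 in the fifth.

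Reg3b, a lectin of the crypt epithelium, ranged from 133 to 9697 CPM at 3 months with a median of 322 CPM. Its median was 199 CPM at 9 months (65.7 to 688), 165 CPM at 15 months (53.5 to 409.5), 103 CPM at 24 months (26.6 to 2384) and 105 CPM at 28 months (25.4 to 290.1). The groups overlapped, but all 18 mice of 28 months were below the 3-month median and 13 of them below the lowest 3-month mouse. Between 3 and 28 months Reg3b fell 8.9-fold (log2 fold change -3.15 ± 0.51 SE, edgeR quasi-likelihood test, adjusted p = 4.438e-07). A few mice carried much of this size. Mice 14 and 6 of the 3-month group had 9697 and 2111 CPM, mouse 5 of the 24-month group had 2384 CPM, and the next highest value in any mouse was 687.9 CPM. With these 3 mice left out, a choice made after their values were seen, the log2 fold change between 3 and 28 months was -1.44 and still passed (edgeR, adjusted p = 3.759e-05). Within the 3 batches the difference of mean log2 CPM between these ages was -1.37, -2.58 and -2.32.

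The fall of Reg3b between 3 and 9 months was 3.9-fold (log2 fold change -1.97 ± 0.51 SE, edgeR quasi-likelihood test, adjusted p = 0.013). Without mouse 14 of the 3-month group it was -0.85 and no longer passed (adjusted p = 0.249 in edgeR), and without all 3 high mice it was -0.35 (adjusted p = 0.554 in edgeR). Between 15 and 24 months the sign itself was not steady. It changed without 1 animal and also, with all mice of these ages kept, in other fits described below. The log2 fold change was 0.11 with all mice and -0.96 without the 3 high mice (edgeR, adjusted p = 0.0266), of which only the 24-month mouse belongs to these ages. The differences of mean log2 CPM within batches were -0.46, -0.67 and -0.90.

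Reg3g, whose product binds the peptidoglycan of Gram-positive bacteria, had a median of 109 CPM at 3 months with a range of 41.6 to 2082 CPM. The medians of the later ages were 78.8 CPM at 9 months, 67.7 CPM at 15 months, 43.6 CPM at 24 months and 40.9 CPM at 28 months. All 18 mice of 28 months lay below the median of the 3-month mice, and 9 lay below their lowest value. The 5.77-fold decrease between 3 and 28 months (log2 fold change -2.53 ± 0.39 SE, edgeR quasi-likelihood test, adjusted p = 2.069e-07) became -1.13 without the 3 mice with the highest Reg3b, which are also the 3 highest for Reg3g. Between 3 and 9 months the log2 fold change was -1.32 ± 0.39 SE (edgeR, adjusted p = 0.036). Without mouse 14 of the 3-month group it was -0.42 (edgeR, adjusted p = 0.511), and without the 3 high mice 0.03, so that the direction was lost.

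Reg4 is a C-type lectin secreted by the deep crypt secretory cells of the mouse colon. Its median was 152 CPM at 3 months, 168 CPM at 9 months, 95.3 CPM at 15 months, 127 CPM at 24 months and 102 CPM at 28 months. At every age the lowest mouse lay between 17.5 and 34.5 CPM and the highest between 213.6 and 309 CPM, so that the 5 groups covered nearly the same range. No difference with age passed the threshold, and between 3 and 28 months the log2 fold change was -0.25 ± 0.31 SE (edgeR quasi-likelihood test, adjusted p = 0.545). Reg4 varied 17.6-fold between mice, and age took 6.08% of its variance on the log2 scale. Its difference between 3 and 28 months was -0.98, -1.0 and 1.10 within the 3 batches.

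Itln1 encodes intelectin 1, a lectin that recognizes microbial sugars. At 15 months it ranged from 3.41 to 203 CPM with a median of 40.8 CPM, the highest median of the 5 ages. The medians before were 11.8 CPM at 3 months and 25.5 CPM at 9 months, and those after were 19.0 CPM at 24 months and 2.31 CPM at 28 months. At 28 months 17 of 18 mice lay below the 24-month median, and all 18 below the 15-month median. Between 3 and 9 months the log2 fold change was 1.12 ± 0.47 SE and did not pass (edgeR quasi-likelihood test, adjusted p = 0.161). Between 24 and 28 months Itln1 fell 4.08-fold (log2 fold change -2.03 ± 0.48 SE, edgeR quasi-likelihood test, adjusted p = 0.00397). The difference was -3.47, -1.95 and -0.23 within the 3 batches, and in the third of these it was thus nearly absent. Between 3 and 28 months the log2 fold change of -0.94 ± 0.47 SE lay at the threshold (edgeR, adjusted p = 0.0998), and leaving out any 1 of 49 of the 83 mice, or the 5 libraries with the lowest smooth muscle sum (edgeR, adjusted p = 0.124), moved it to the other side.

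Mptx1 and Mptx2 are mucosal pentraxins, relatives of C-reactive protein. Mptx1 had a median of 932 CPM at 3 months (397 to 4796), 1913 CPM at 9 months (702 to 3959), 2048 CPM at 15 months (135 to 4902), 641 CPM at 24 months (24.0 to 2304) and 96.2 CPM at 28 months (1.79 to 871). At 28 months 16 of 18 mice lay below the lowest mouse of 3 months, and only 1 lay above the 24-month median. Between 24 and 28 months Mptx1 fell 5.38-fold (log2 fold change -2.43 ± 0.50 SE, edgeR quasi-likelihood test, adjusted p = 0.000892), and it did so in each batch, with differences of -4.93, -1.95 and -2.50. Between 3 and 28 months the decrease was 8.23-fold (log2 fold change -3.04 ± 0.51 SE, edgeR, adjusted p = 1.175e-06). The earlier step from 15 to 24 months, which was known when the gene was picked, is given as a description: the log2 fold change was -1.32 ± 0.49 SE, 14 of 17 mice of 24 months lay below the 15-month median, and the within-batch differences were -1.01, -2.02 and -2.42. Leaving out any 1 of 11 mice ended the call (edgeR, adjusted p up to 0.121).

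Mptx2 had median read pairs per library of 8 (3 months), 12 (9 months), 14.5 (15 months), 7 (24 months) and 0 (28 months). The oldest group thus had the most libraries without a read pair, 11 of 18, against 2 of 17 in the 24-month group, 1 of 16 in the 3-month group and 0 in the remaining groups. The values of the age groups overlapped, and the highest library had 185 read pairs (3 months). The log2 fold change was -1.28 ± 0.45 SE between 15 and 24 months (edgeR quasi-likelihood test, adjusted p = 0.0653, but up to 0.145 without mouse 5 or 16 of 15 months or mouse 15 of 24 months) and -2.74 ± 0.67 SE between 24 and 28 months (edgeR, adjusted p = 0.00585). Relative to Mptx1 its read pairs were 0.0401% at 3 months, but 0.0199% without mouse 4 of that group, which held the 185 read pairs. At the other ages they lay between 0.0157% (28 months) and 0.0252% (24 months). A library at 0 can still hold up to 3 read pairs by counting error alone, and the Mptx2 values are to be read with that and with the stretch shared with Mptx1 in mind.

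Retnlb encodes resistin-like molecule beta, a goblet cell protein that attacks Gram-negative bacteria. Its median was 364 CPM at 3 months (137 to 769), 597 CPM at 9 months (224 to 1451) and 846 CPM at 15 months (132 to 3210), and neither the step from 3 to 9 months nor that from 9 to 15 months passed the threshold. The difference between 3 and 15 months was not tested. It was 419 CPM at 24 months (102 to 1350) and 177 CPM at 28 months (81.4 to 605), where all 18 mice lay below the 15-month median. Retnlb fell 1.95-fold between 15 and 24 months (log2 fold change -0.96 ± 0.31 SE, edgeR quasi-likelihood test, adjusted p = 0.0374, but 0.111 without mouse 15 of the 15-month group) and 2.11-fold between 24 and 28 months (log2 fold change -1.07 ± 0.30 SE, edgeR, adjusted p = 0.0174). The second difference was -1.75 and -1.28 within 2 batches and 0.16 in the other, so it did not hold in every batch. When marker scores of smooth muscle and of B cells entered the fit it was -0.69 and did not pass (edgeR, adjusted p = 0.147). All 5 B cell markers fell between 24 and 28 months, beside 6.01% of all genes, with a median log2 fold change of -1.01, and their part in the result was not tested further.

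Ang4, a bactericidal ribonuclease of the angiogenin family, followed with medians of 340.5 CPM at 3 months, 633 CPM at 9 months, 883 CPM at 15 months, 518 CPM at 24 months and 112 CPM at 28 months. At 28 months its range ran from 4.29 to 666 CPM, and 9 of 18 mice lay below the lowest 24-month mouse at 122 CPM. It fell 2.94-fold between 24 and 28 months (log2 fold change -1.56 ± 0.38 SE, edgeR quasi-likelihood test, adjusted p = 0.00575), with within-batch differences of -3.04, -1.80 and -1.47. Between 15 and 24 months the log2 fold change was -0.77 ± 0.38 SE and did not pass (edgeR, adjusted p = 0.198).

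Lypd8 stayed between 5100 and 9316 CPM in all 83 mice, a 1.83-fold range. Its mean was 7463 ± 978 CPM at 3 months (SD, n = 16), 7162 ± 644 CPM at 9 months (n = 16), 7113 ± 691 CPM at 15 months (n = 16), 7058 ± 908 CPM at 24 months (n = 17) and 6577 ± 1008 CPM at 28 months (n = 18). The groups overlapped. Of the 18 mice of 28 months, 14 were below the 3-month median, 4 below the lowest 3-month mouse and 7 below the lowest 9-month mouse. The decrease between 3 and 28 months was 1.13-fold (log2 fold change -0.18 ± 0.06 SE, edgeR quasi-likelihood test, adjusted p = 0.0145), and no consecutive pair of ages passed the threshold. Without the 5 libraries with the lowest smooth muscle sum, a choice made after seeing the data, it was -0.12 and did not pass (edgeR, adjusted p = 0.138).

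Apart from Lypd8 the members varied far more between mice of the same age than most genes. After age and batch were removed, the SD of log2 CPM between mice was 1.69 for Mptx1, 1.52 for Itln1, 1.28 for Ang4, 1.15 for Reg3b, 1.08 for Mptx2, 1.01 for Reg4, 0.96 for Reg3g and 0.93 for Retnlb. These 8 values stood between percentiles 98.5 and 99.6 of all genes tested, and Lypd8, with 0.18, at percentile 45.5. The median was 1.08 for the 9 members, 0.20 for all genes tested and 0.16 for the 14962 genes with a mean of at least 1 CPM. The spread of Mptx1 and Ang4 was wider at 28 than at 9 months, a difference that was not tested. The SD of Mptx1 on the log2 scale was 0.83 at 9 months and 2.61 at 28 months, and that of Ang4 was 0.66 and 2.11. Within the 28-month group Mptx1 differed 487-fold between the highest and the lowest mouse, and Ang4 155-fold. The share of variance that age took was 57.2% for Mptx1 and had a median of 37% over the members, beside 12% over all genes tested. Library batch took a median of 0.374% after age.

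**Figure D3:**
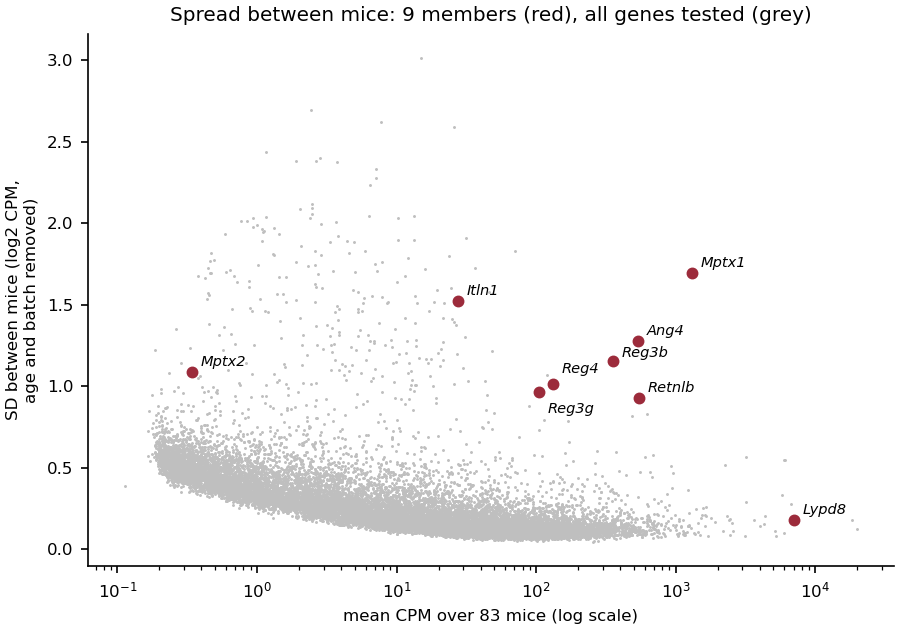
SD between mice of log2 CPM after removal of age and batch (vertical axis) against mean CPM over the 83 mice (horizontal axis, log scale), for all 18325 genes tested in grey and the 9 members in red. Mptx1 (1.69), Ang4 (1.28), Reg3b (1.15) and Retnlb (0.93) lie high above the median of all genes (0.20), and Lypd8 lies at 0.18.

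The 9 genes split into 2 groups that varied together between mice, and 2 genes that went with neither. For each of the 36 pairs Pearson's r was computed over the 83 mice after age and batch had been removed, with a 2-sided permutation test (100000 resamples, smallest possible p 1e-05) and Benjamini-Hochberg adjustment over the 36 pairs, and 13 pairs passed an adjusted p of 0.1. How many pairs of other genes would pass was not computed, so this count has no background to be read against. Reg3b and Reg3g were closely tied (r = 0.92, rho = 0.85, permutation p = 1e-05, adjusted p = 3.6e-05). Within the batches r was 0.95, 0.88 and 0.91, without the 2 mice farthest from the median it was 0.87, and without the 3 mice with the highest Reg3b it was 0.84. Neither gene followed Itln1, Mptx1, Mptx2, Retnlb or Ang4, with r between -0.11 and 0.08 in these 10 pairs.

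Itln1, Mptx1, Mptx2, Retnlb and Ang4 formed the other group, in which all 10 pairs passed. The closest were Itln1 and Retnlb (r = 0.93, rho = 0.93, permutation p = 1e-05, adjusted p = 3.6e-05), with r between 0.92 and 0.94 within batches and 0.92 without the 2 farthest mice. Mptx1 and Ang4 came next (r = 0.89, rho = 0.85, permutation p = 1e-05, adjusted p = 3.6e-05), with 0.85, 0.94 and 0.92 within batches and 0.88 without the 2 farthest mice. Itln1 and Ang4 had r = 0.86, Retnlb and Ang4 0.80, Itln1 and Mptx1 0.75, and Mptx1 and Retnlb 0.68. The 4 pairs of Mptx2 had values from 0.49 with Ang4 to 0.68 with Mptx1, and within batch 3 they ranged down to 0.28. Mptx2 was at 0 read pairs in 14 of 83 libraries. The part of read pairs from the stretch shared with Mptx1 in these values was not tested. Within each age taken alone, Itln1 and Retnlb had r between 0.85 and 0.97.

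Single animals, named after their values were seen, show this. Mouse 6 of the 15-month group was the lowest of its age for all 5 genes, with 3.41 CPM of Itln1, 135 CPM of Mptx1, 0.0287 CPM of Mptx2, 132 CPM of Retnlb and 153 CPM of Ang4, and at the same time had 267 CPM of Reg3b and 7226 CPM of Lypd8, both above the median of its age. Mouse 15 of that age had the highest Itln1, Retnlb and Ang4, at 203, 3210 and 2571 CPM. Mouse 13 of the 28-month group had 0.583 CPM of Itln1, 1.79 CPM of Mptx1 and 4.29 CPM of Ang4, the lowest of all 83 mice for each, beside 190.7 CPM of Reg4. Mouse 14 of the 3-month group, the highest in Reg3b, had 14.9 CPM of Itln1 and 359 CPM of Ang4, both near the median of its age, but 717 CPM of Retnlb and 1532 CPM of Mptx1 against medians of 364 and 932 CPM. Within the 3-month group alone r was 0.54 for Reg3g with Retnlb and 0.41 for Reg3b with Retnlb, values that were not tested.

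**Figure D4:**
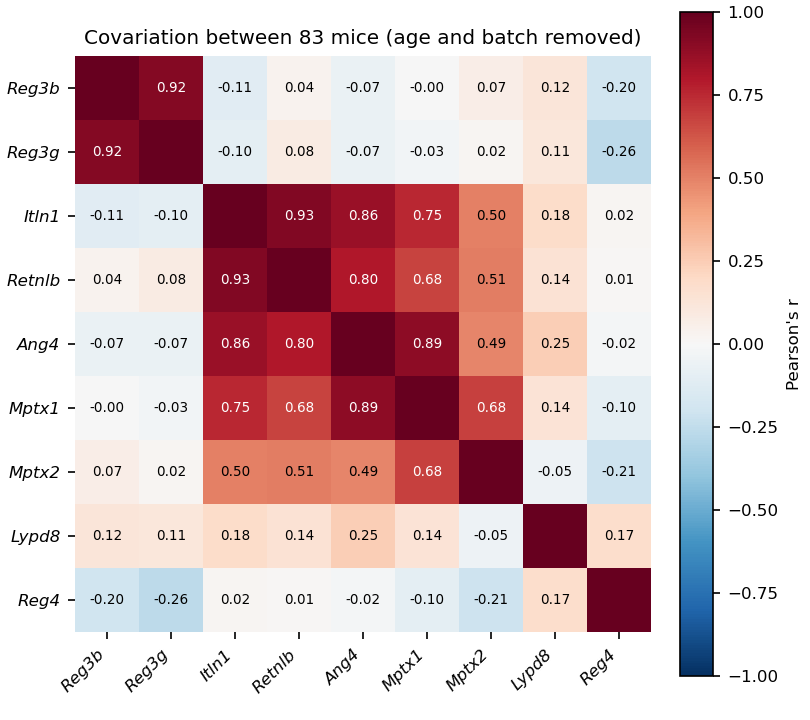
Pearson's r between the 9 genes over 83 mice after removal of age and batch, as colour (blue to red, -1 to 1) and number. Reg3b with Reg3g (0.92) and the block of Itln1, Retnlb, Ang4, Mptx1 and Mptx2 (0.49 to 0.93) stand out, and Lypd8 and Reg4 have values between -0.26 and 0.25 with the other members.

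Reg4 and Lypd8 stood apart. The 2 pairs beyond the 2 groups that passed the threshold were Reg3g with Reg4 (r = -0.26, rho = -0.20, permutation p = 0.0186, adjusted p = 0.0558) and Ang4 with Lypd8 (r = 0.25, rho = 0.24, permutation p = 0.0239, adjusted p = 0.0663). Neither was steady, since r of the first was 0.11 in batch 2 and -0.12 without the 2 farthest mice, and r of the second was between 0.08 and 0.43 in the batches and 0.19 without the 2 farthest mice. At 28 months Lypd8 went with the whole larger group, with r = 0.61 for Mptx1, 0.59 for Ang4, 0.54 for Itln1, 0.53 for Mptx2 and 0.52 for Retnlb. At the other 4 ages the values of these pairs lay between -0.48 and 0.39, a difference that was not tested.

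Markers of the cells and of the colon segment in the sample moved with several members. The summed CPM of 5 marker lists (goblet cells, deep crypt secretory cells, colonocytes, distal Hox genes and smooth muscle) was related to each member in the same way, and 19 of 45 relations passed an adjusted p of 0.1 over the 45. The share of other genes that would pass with these lists was not computed. The goblet list of 7 genes was related to all 5 genes of the larger group, from r = 0.33 for Mptx2 to r = 0.55 for Itln1 (rho = 0.69, permutation p = 1e-05, adjusted p = 0.000113). For Itln1 this was 0.72, 0.74 and 0.35 within the batches and 0.54 without the 2 farthest mice, and for Mptx2 it was -0.04 within batch 3. In that batch, mouse 16 of the 15-month group had a goblet sum 0.91 (log2) below that of its age and batch. The next lowest mouse lay 0.35 below. The 2 farthest mice were taken by the member and not by the goblet sum, and r without mouse 16 was not computed. The single markers differed: with Itln1, r was 0.88 for Clca1, 0.61 for Fcgbp and 0.59 for Spink4, but -0.16 for Muc2, the main gel-forming mucin, 0.06 for Agr2 and -0.01 for Spdef, the goblet cell transcription factor. The colonocyte sum went the other way with these 5 genes, with r = -0.46 for Mptx1, -0.43 for Ang4, -0.35 for Mptx2, -0.32 for Itln1 and -0.23 for Retnlb (permutation test, adjusted p from 0.000113 to 0.0921). Its single markers also differed, with r of -0.50 for Car1 and 0.47 for Car4 with Mptx1. The deep crypt sum was lower in mice with more Mptx1 and Mptx2 (r = -0.23 for both, permutation test, adjusted p = 0.0921), although its single markers ranged with Mptx1 from -0.30 for Nupr1 to 0.65 for Pnliprp2. Lypd8 had r = 0.23 with the goblet sum and -0.23 with smooth muscle (permutation test, adjusted p = 0.0921 for both), while rho was 0.14 and -0.16 and did not pass. The goblet sum had a median of 33060 CPM at 3 months, 39330 CPM at 15 months and 25770 CPM at 28 months, and 3 of its 7 genes (Clca1, Fcgbp and Agr2) fell between 24 and 28 months, where 6.01% of all genes did. Of the 6 deep crypt markers 2 also fell at this step, among them Pnliprp2 (log2 fold change -1.89, edgeR, adjusted p = 0.013). The deep crypt sum had medians of 502 CPM at 24 months and 518 CPM at 28 months. The part of either list in the changes of the members was not tested.

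Reg4 was related to markers of the distal colon. It was lower in mice with more of the 3 tested distal Hox genes (r = -0.47, rho = -0.52, permutation p = 3e-05, adjusted p = 0.000169), with -0.63, -0.40 and -0.40 within the batches and -0.48 without the 2 farthest mice, and higher in mice with a higher sum of 7 colonocyte markers (r = 0.55, rho = 0.60, permutation p = 1e-05, adjusted p = 0.000113). The second relation followed Car1, a carbonic anhydrase, alone (r = 0.55), since the other 6 markers had r between -0.11 for Car4 and 0.20 for Krt20. Mptx1 and Mptx2 went the other way, with r = 0.41 and 0.44 for the distal Hox genes (permutation p = 0.00017 and 2e-05, adjusted p = 0.000765 and 0.000129). The position of the sampled piece along the colon was not measured, and its part in the spread of these 3 members was not tested. The distal Hox sum had medians between 41.9 and 46.7 CPM in the 5 age groups, and none of its 3 tested genes passed the threshold over the 5 ages, although Hoxd13 was lower at 28 than at 3 months (log2 fold change -0.82, edgeR, adjusted p = 0.0868). With the goblet, colonocyte and Hox lists Reg3b and Reg3g did not pass. With smooth muscle they did not pass by Pearson's r (-0.21 and -0.14, permutation test, adjusted p = 0.116 and 0.338) but did by rank (rho = -0.31 and -0.25, permutation test, adjusted p = 0.0174 and 0.0568). Reg3g reached r = 0.23 with the deep crypt list (permutation p = 0.0389, adjusted p = 0.0921), while rho was 0.15 (permutation test, adjusted p = 0.263). The relation of Reg4 to the deep crypt sum did not pass (r = -0.10, rho = -0.09, permutation test, adjusted p = 0.499 for r). Single markers of this list had r with Reg4 from -0.23 for Mmp7 to 0.14 for Lyz1.

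**Figure D5:**
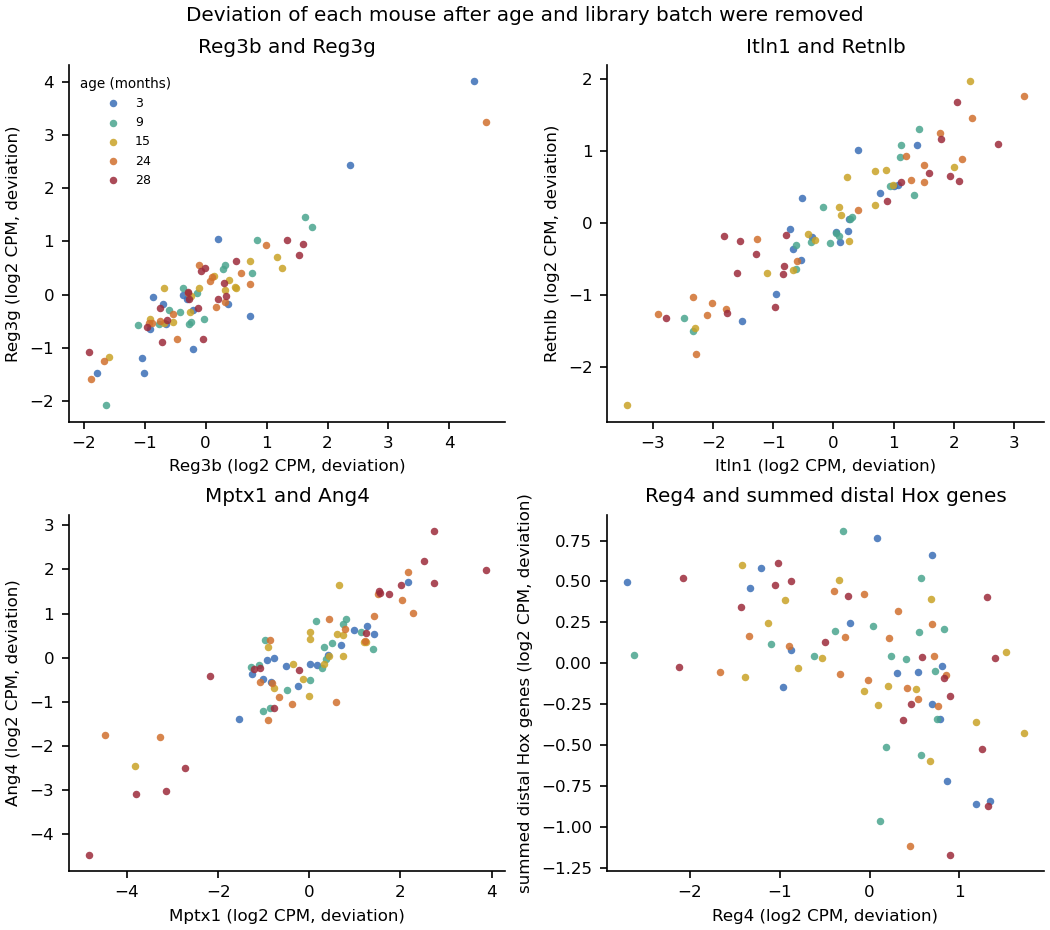
Deviation of each of the 83 mice from its age and batch in log2 CPM, coloured by age in months, for Reg3b against Reg3g, Itln1 against Retnlb, Mptx1 against Ang4, and Reg4 against the summed distal Hox genes. The first 3 panels rise (r = 0.92, 0.93 and 0.89), with 3 mice far to the upper right in the first, and the last falls (r = -0.47).

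Beyond the members, the genes that followed each of them most closely are given as a description over the 83 mice, without a test. Apart from each other, Reg3b and Reg3g were nearest to Ms4a8a, a membrane protein gene (r = 0.65 and 0.67, rho = 0.37 and 0.47), and to Wfdc18, a small secreted protein gene (r = 0.64 and 0.64). For Ms4a8a and Reg3b r was 0.08 in batch 2. Itln1 and Retnlb shared Pnliprp2, a pancreatic lipase relative that is also in the deep crypt list, with r = 0.93 and 0.92, and Retnlb was also near Pla2g4c, a phospholipase gene (r = 0.87). Itln1, Mptx1 and Ang4 shared Clca1, a secreted goblet cell protein, with r of 0.88, 0.80 and 0.88. Mptx2 was nearest to Mptx1 and was also near Atp12a, a colonic proton pump (r = 0.57). Reg4 was nearest to St3gal5, a ganglioside synthase (r = 0.91), and to the transcripts Gm43697 and 9130221F21Rik (r = 0.91 and 0.89). Lypd8 was nearest to Shisa5, Irf7 and Ifi27l2b (r = 0.80, 0.80 and 0.79), of which Irf7 and Ifi27l2b are interferon-induced genes. Of these 3, Shisa5 alone passed between 3 and 28 months (log2 fold change -0.11, edgeR, adjusted p = 0.0468), and between 3 and 9 months (-0.14, edgeR, adjusted p = 0.0799).

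Of 46 other antimicrobial genes listed, 43 were in the table and 33 were tested. Between 24 and 28 months 9 of them fell and 3 rose, with a median log2 fold change of -0.23, where 6.01% of all genes fell and 5.66% rose. Between 3 and 28 months 12 fell and 9 rose, with a median of -0.08, where 25.9% of all genes fell and 23.5% rose, so that the number that rose was near this background. Reg3a, the neighbour of Reg3b and Reg3g in the same family, was at 1.97 ± 1.13 CPM at 3 months (SD, n = 16) and 0.394 ± 0.197 CPM at 28 months (n = 18), a log2 fold change of -2.29 ± 0.30 SE (edgeR quasi-likelihood test, adjusted p = 2.593e-09). Saa1, an acute phase protein also made by the colon epithelium, fell from 264 ± 131.5 to 108 ± 43.2 CPM between these ages (log2 fold change -1.29 ± 0.18 SE, edgeR, adjusted p = 1.455e-08). S100a8 and S100a9, subunits of calprotectin and mainly neutrophil products, went up between 15 and 24 months, with log2 fold changes of 1.09 ± 0.33 SE and 1.45 ± 0.32 SE (edgeR, adjusted p = 0.0306 and 0.00211), at mean levels below 0.5 CPM at every age. Nos2, the inducible nitric oxide synthase, had its highest mean at 15 months (12 CPM) and Retnlg at 24 months (1.01 CPM), and both passed over the 5 ages (edgeR, adjusted p = 0.00123 and 0.00145). Among the abundant genes, Pigr, the transporter of immunoglobulin A, fell by 0.16 on the log2 scale between 24 and 28 months (edgeR, adjusted p = 0.0478), Dmbt1, a mucosal scavenger receptor, fell by 0.51 on the log2 scale between 3 and 28 months (edgeR, adjusted p = 0.00252), and Rnase4, a ribonuclease, had -0.01 between these ages.

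Of 31 listed cytokines, receptors and signalling genes that are known to control such genes, 23 were tested, and the ligand genes Il22, Il17a, Il17f, Il13, Il4, Il25, Il6 and Ifng were too low for a test, with at most 59 read pairs in any mouse. Between 24 and 28 months 2 of the 23 fell and none rose, with a median of -0.02, which is near the 6.01% and 5.66% of all genes. Il22ra2, the soluble decoy receptor of interleukin 22, was one of them and fell from 4.65 ± 1.12 CPM (SD, n = 17) to 2.82 ± 1.28 CPM (n = 18), a log2 fold change of -0.71 ± 0.15 SE (edgeR quasi-likelihood test, adjusted p = 0.000955). Nfkbiz, an inhibitor kappa B family regulator, was the other, with -0.23 ± 0.09 SE (edgeR, adjusted p = 0.0785). Tnf rose between 15 and 24 months by 0.42 ± 0.13 SE on the log2 scale (edgeR, adjusted p = 0.0292). Tlr5, the flagellin receptor, was lower at 9 than at 3 months (log2 fold change -0.35 ± 0.10 SE, edgeR, adjusted p = 0.0195), as was Il13ra1 (-0.11 ± 0.04 SE, edgeR, adjusted p = 0.0809). Il33, Il18 and Stat6 passed over the 5 ages in edgeR, with log2 fold changes between 3 and 28 months of 0.48, -0.43 and -0.11.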

How the data were processed

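Colon RNA was prepared as stranded polyA libraries and sequenced as paired reads. Per the labels and the study's methods, the authors trimmed reads with cutadapt 2.8, aligned them to GRCm38 with HISAT2 2.1.0, filtered alignments with SAMtools 1.9 and counted read pairs per gene, by strand, with featureCounts (Subread 2.0.1), and they deposited raw counts of 37764 genes in 83 mice. The methods describe that filter as keeping uniquely mapped reads, but the flag they give removes secondary alignments only, so it is not certain how read pairs that match both Mptx1 and Mptx2 were counted. No column went unused. Members and gene lists were chosen with earlier results of these data known.

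From the counts, genes were filtered with filterByExpr by age (18325 kept) and fitted in edgeR 4.0.16 (R 4.3.3, TMM, quasi-likelihood test, age and library batch, all mice in 1 fit). Calls used a Benjamini-Hochberg adjusted p below 0.1 over all genes tested. Log2 CPM used a prior count of 2, and TPM used GENCODE M21 gene lengths. Correlations used residuals after age and batch and 100000 resamples (scipy 1.17.1, numpy 2.4.6). The scripts were tested on simulated data. Named genes were the 9 members, the 3 genes most correlated with each (mean CPM 1 or higher), and, from each of the lists of other antimicrobial and of cytokine genes, those past the threshold over the 5 ages with the 6 largest ranges of age means and the 3 most abundant. Some genes that this rule names are not reported here. Markers and single mice beyond that rule were named after their values were seen. Totals of 23026370 to 75838290 read pairs set the counting precision, which is weakest for Mptx2. Alternatives were DESeq2 1.42.0, its size factors, other filters, thresholds and prior counts, a fit without batch, a replicate block, marker scores as covariates and only the ages compared. Leaving out each mouse, leaving out the 3 mice with the highest Reg3b or the 5 with the lowest smooth muscle sum, and the relations to cytokine genes were added after seeing the data.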

Additional observations from a re-analysis of the deposited data

How the results depend on the processing

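Of the 443 values of single members under the alternatives, 412 kept their direction and side of the threshold, 16 fell short of it, 4 newly passed and 11 changed sign. The counts over the 5 ages, between 9 and 15, between 24 and 28 and between 3 and 28 months moved by less than 1.5 times under every alternative run, and DESeq2 gave the same 6 counts. The counts at 3 to 9 and 15 to 24 months moved more. Between 3 and 9 months the count of 2 became 0 with the replicate block, 1 with marker covariates, 0 without the 3 mice with the highest Reg3b and 0 to 3 when each mouse was left out. With only the 2 ages fitted it was 2, but these were Itln1 and Retnlb, both higher at 9 months (1.14 and 0.77), in place of Reg3b and Reg3g, both lower. Between 15 and 24 months the count of 3 became 1 without a filter, 1 at an adjusted p below 0.05, 5 without the 3 mice and 1 to 4 when each mouse was left out. The call was lost for Mptx1 without any 1 of 11 mice (3, 5, 13 or 16 of 15 months, or 1, 8, 9, 10, 15, 16 or 17 of 24 months, with the highest adjusted p 0.121 in edgeR). It was lost for Mptx2 without mouse 5 or 16 of 15 months or 15 of 24 months (0.145), and for Retnlb without mouse 15 of 15 months (0.111). The 13 pairs became 21 with age and batch not removed. Without the 5 mice with the lowest smooth muscle sum the 6 counts were 7, 2, 0, 3, 5 and 6, with Itln1 and Lypd8 lost between 3 and 28 months. The cause was not tested.

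The sign changed for Reg3g between 3 and 9 months without the 3 mice (0.0326), for Mptx2 there with the replicate block (0.25), and for Reg3b between 15 and 24 months with the block (-0.39), with only the 2 ages (-0.15) and without the 3 mice (-0.96). Between 15 and 24 months it also changed for Reg4 with the block (0.0207) and for Lypd8 with the block (0.00623), with marker covariates (0.00347) and with only the 2 ages (0.00275). Between 24 and 28 months it changed without the 3 mice for Reg3b (0.34) and Reg3g (0.0289). Replicate numbers do not pair the mice: same-numbered mice of different ages had a median correlation of 0.00728 over 161 pairs, and 2 of 83 mice matched their own number best. With the replicate block the counts were 7, 0, 0, 3, 5 and 7 for the 5 ages, 3 to 9, 9 to 15, 15 to 24, 24 to 28 and 3 to 28 months. Depth limits Mptx2, and 14 of 83 libraries held none of its read pairs.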

Other observations

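The members were also related to the 23 tested genes of cytokine signalling, a comparison added after the values of the members had been seen. Over the 83 mice, with age and batch removed, 39 of 207 relations passed an adjusted p of 0.1 (2-sided permutation test, Benjamini-Hochberg adjustment over the 207). The share of other genes that would pass was not computed, so this count has no background to be read against. Reg3b and Ang4 passed with 8 genes each, Reg3g, Itln1, Retnlb and Lypd8 with 5 each, Mptx1 with 2, Mptx2 with 1 and Reg4 with 0. Reg3g was higher in mice with more Il18, an epithelial cytokine (r = 0.61, rho = 0.31, permutation p = 1e-05, adjusted p = 0.000414), and with more Socs3, a feedback inhibitor induced by STAT3 (r = 0.60, rho = 0.40, permutation p = 1e-05, adjusted p = 0.000414). Both leaned on the mice with very high Reg3g, since without the 2 farthest mice r was 0.39 and 0.34, and for Socs3 it was 0.63, 0.21 and 0.78 within the batches. From the youngest to the oldest group, r of Reg3g with Il18 was 0.85, 0.61, 0.20, 0.62 and 0.02. With Socs3 it ran from 0.28 at 9 months to 0.78 at 3 months.

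Retnlb was higher in mice with more Nfkbiz (r = 0.50, rho = 0.53, permutation p = 1e-05, adjusted p = 0.000414), with r of 0.44, 0.53 and 0.52 within the batches and 0.50 without the 2 farthest mice. By age, r ran from 0.11 at 9 months to 0.75 at 24 months. Ang4 was higher in mice with more Il4ra, a subunit of the receptors for interleukin 4 and interleukin 13 (r = 0.41, rho = 0.39, permutation p = 0.00013, adjusted p = 0.00384), with r between 0.28 and 0.63 within the batches and 0.39 without the 2 farthest mice. Within single ages r was uneven, 0.06 among the youngest mice, 0.39, -0.01 and 0.30 in the next 3 ages, and 0.65 among the oldest. Retnlb was lower in mice with more Tlr5 (r = -0.39, rho = -0.38, permutation p = 0.00034, adjusted p = 0.00828), with r between -0.45 and -0.36 within the batches and -0.37 without the 2 farthest mice.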
